A study of Mus musculus with 12 samples.

Results

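The 9 mRNAs described here encode the enzymes of serine synthesis, the folate-linked one-carbon enzymes and asparagine synthetase: Phgdh, Psat1, Psph, Shmt1, Shmt2, Mthfd1, Mthfd1l, Mthfd2 and Asns. They were chosen by name as the enzymes of these pathways, and are 9 of the 55416 gene IDs counted. All 9 passed the low-count filter and are among the 17702 genes tested. In mouse embryonic stem cells, ER-labelled ribosomes carried less of 7 of the 9 than whole-cell RNA did, as they did for 29.1% of all genes tested, and Mthfd1l and Asns stood lowest. After Lsg1 siRNA, Phgdh and Mthfd1l fell on ER-labelled ribosomes in the main fit, as 1.38% of all genes did. Alternative fits called 1 to 5 of the 9 there, and 290 to 1178 of all genes. In whole-cell RNA none of the 9 passed the test, where 0 of the 17702 genes did. For none of the 9 was the siRNA difference shown to differ between the fractions, where 0.0226% of all genes passed that test.

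Cells make serine from the glycolytic intermediate 3-phosphoglycerate. Phgdh oxidises it in the first committed step, Psat1 transfers an amino group to the product, and Psph removes the phosphate. Serine then gives glycine and a carbon unit carried on tetrahydrofolate, through Shmt1 in the cytosol and Shmt2 in mitochondria. In mitochondria Mthfd2 oxidises the carbon unit and Mthfd1l releases it as formate. In the cytosol Mthfd1 takes formate up again, and the carbon feeds purine and thymidylate synthesis. Asns makes asparagine from aspartate with glutamine as the nitrogen donor. The transcription factor Atf4 is known to raise the genes of serine synthesis, mitochondrial one-carbon metabolism and Asns when amino acids run short. The proteins end up in the cytosol (6 of 9) or in mitochondria (Shmt2, Mthfd1l and Mthfd2), and none is a secreted or ER membrane protein.

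The cells were Rpl31-FTA E14Tg2a.4 mESCs, a mouse embryonic stem cell line in which Rpl31, a protein of the large ribosomal subunit, carries a FLAG-TEV-AviTag. ALIBi places biotin on the tag of nearby ribosomes. In all samples it acted at the endoplasmic reticulum (ER), and ribosomes purified by their biotin gave the ER-bound RNA. Whole-cell RNA came from the input lysates of the purifications. Lsg1 siRNA was directed at Lsg1, a GTPase needed to finish the 60S ribosomal subunit in the cytoplasm, and scramble siRNA was the control. Lsg1 siRNA cells and scramble siRNA cells each gave an ER-bound group and a whole-cell group, which makes 4 groups with 3 biological replicates each. All cells grew in serum and leukaemia inhibitory factor with added non-essential amino acids, a supplement that contains serine, glycine and asparagine. All samples come from the same tagged line, and no library of all ribosomes was analysed here. An mRNA can therefore stand low in ER-bound RNA because fewer of its ribosomes are at the ER or because fewer ribosomes are on it anywhere, and these cannot be told apart.

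Each library held 38092178 to 56522114 reads in genes, and each of the 9 mRNAs had at least 2091 reads in every library. Levels are CPM, counts scaled to a common library size with TMM factors, listed by replicate number 1, 2 and 3, and means carry the SD of 3 libraries. The labels call the replicates biological but do not say that they were cultured apart, so the spread measured is that between these samples. ER-bound and whole-cell libraries separated on the first principal component (68.5% of the variance). The 14 ER chaperone genes were all higher in ER-bound RNA of scramble cells, with a median log2 fold of 0.87, and all 13 mitochondrially encoded mRNAs were lower. The 10 embryonic stem cell markers were all present at 1 CPM or more, summing to 9975 to 10930 CPM in ER-bound and 7935 to 8177 CPM in whole-cell libraries. Of 10 fibroblast or feeder markers, 4 reached a mean of 1 CPM, the list summed to 51.5 to 62.7 CPM in ER-bound and 30.4 to 33.4 CPM in whole-cell libraries, and Lum was at 0 in every group. Primitive endoderm markers summed to 33.6 to 36.4 CPM, with 6 of 8 at 1 CPM or more. Early differentiation markers summed to 287 to 318 CPM in ER-bound and 416 to 467 CPM in whole-cell libraries. The part of these cells in the results was not tested. A gene with no name here, ENSMUSG00000119584, stood far higher than elsewhere in 2 libraries, replicate 3 of whole-cell RNA with Lsg1 siRNA and replicate 3 of ER-bound RNA with scramble siRNA. Results are given without both where that changes a call.

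Lsg1, the siRNA's target, had 35.4, 42.5 and 52.5 CPM in ER-bound RNA with Lsg1 siRNA, against 142.5, 149.3 and 150.9 CPM with scramble siRNA. In whole-cell RNA it had 83.5, 96.7 and 113.7 CPM with Lsg1 siRNA, against 136.0, 144.5 and 148.6 CPM with scramble siRNA. Every Lsg1 siRNA library lay below every scramble library in both fractions, but only the ER-bound difference passed edgeR's quasi-likelihood test (adjusted p = 6.3e-08 in ER-bound and 0.245 in whole-cell RNA). The whole-cell fold of Lsg1 was -0.55 on the log2 scale. It passed edgeR's test without ER-bound scramble replicate 1 (-0.55, adjusted p = 0.0244) and without both libraries high in ENSMUSG00000119584 (-0.67, adjusted p = 0.0127). In a fit of the whole-cell libraries alone it passed too (edgeR adjusted p = 0.0016). With all 12 libraries it passed with a replicate block (edgeR adjusted p = 0.0016) and with no low-count filter (1.7e-33). The fold without the filter was still -0.55, so the smaller p does not reflect a larger difference. Why the filter moved the p so far was not tested.

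Promoters of Asns, Mthfd1l and Psat1 are shown because these 3 mRNAs had the lowest ER-bound share and because Atf4 acts through DNA elements at such genes. They are taken from RefSeq on GRCm38.p6, an older assembly than the GRCm39 used for the counts, and all 9 genes had an entry, with 10 promoters in all. Both strands were searched for TGATGNAA, part of the C/EBP-ATF response element bound by Atf4 with its partners. The other motifs were TGACGTCA, the full cAMP response element, and TGACGT, the shorter ATF site within it, so that each full match counts for both. CACGTG, the E-box bound by Myc, and CCAAT, the box bound by the factor NFY, were searched as well. Capitals mark the matches in the 300 bases, printed 5′ to 3′ along each gene's strand.
Asns, chr6:7693160-7693459, minus strand: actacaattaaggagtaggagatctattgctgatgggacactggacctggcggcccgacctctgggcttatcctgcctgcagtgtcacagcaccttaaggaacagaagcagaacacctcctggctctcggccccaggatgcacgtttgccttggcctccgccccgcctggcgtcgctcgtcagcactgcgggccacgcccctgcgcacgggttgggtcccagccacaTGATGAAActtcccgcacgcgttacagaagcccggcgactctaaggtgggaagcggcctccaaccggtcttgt
Mthfd1l, chr10:3972825-3973124, plus strand: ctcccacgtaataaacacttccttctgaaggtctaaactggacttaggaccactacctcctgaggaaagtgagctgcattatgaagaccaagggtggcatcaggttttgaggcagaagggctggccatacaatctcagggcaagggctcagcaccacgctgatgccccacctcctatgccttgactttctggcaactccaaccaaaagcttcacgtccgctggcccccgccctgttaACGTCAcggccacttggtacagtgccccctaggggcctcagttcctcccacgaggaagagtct
Psat1, chr19:15925010-15925309, minus strand: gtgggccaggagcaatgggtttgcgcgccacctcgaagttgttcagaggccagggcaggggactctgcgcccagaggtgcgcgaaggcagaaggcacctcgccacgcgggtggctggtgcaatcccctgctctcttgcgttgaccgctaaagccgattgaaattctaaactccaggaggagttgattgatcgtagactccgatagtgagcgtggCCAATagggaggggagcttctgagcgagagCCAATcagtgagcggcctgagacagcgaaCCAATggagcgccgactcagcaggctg
The Asns window holds TGATGAAA 23 bases before its start, and it is the 1 of 10 member promoters with TGATGNAA, which 3.97% of 32851 promoters hold. In the human ASNS promoter an element of this kind binds ATF4. Mthfd1l holds TGACGT on the opposite strand 13 bases before its start, as 7.51% of all promoters do in either orientation, and Psph is the other of 2 members with it. Psat1 holds CCAAT 3 times in the first of its 2 promoters. Of the 10 member promoters 6 hold CCAAT, against 37.4% of all promoters. Neither TGACGTCA (1.79% of all promoters) nor CACGTG (7.15%) was found in any of the 10. These matches describe letters in a window and no binding was measured.

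Psat1 was the most abundant of the 9 mRNAs per length of transcript, and Psph the least. In whole-cell RNA with scramble siRNA, levels per kilobase of the longest transcript were 247 ± 3.61 CPM per kb for Psat1 and 204 ± 2.42 for Asns (SD, n = 3). Shmt2 followed at 139 ± 1.96 CPM per kb, Mthfd1 at 121 ± 3.97 and Phgdh at 101 ± 0.957. Shmt1 stood at 67.1 ± 3.06 CPM per kb, Mthfd2 at 52.4 ± 0.452, Mthfd1l at 47.8 ± 0.515 and Psph at 19.3 ± 0.276. Neighbours in this order did not overlap in their 3 libraries. The same order held in each of the other 3 groups, except that the ranges of Mthfd1 and Phgdh overlapped in ER-bound RNA with scramble siRNA (94.8 ± 2.94 and 91.9 ± 2.37 CPM per kb). The middle enzyme of serine synthesis, Psat1, thus had 247 CPM per kb beside 101 for the first enzyme and 19.3 for the last. The order depends on the length used, and whether the longest transcript is the one these cells express was not tested. Psph also shares 452 exon bases with Cct6a on opposite strands, and how reads there were counted is not known. Without the length, Mthfd1l (176 CPM) stood above Mthfd2 (109 CPM) in whole-cell RNA with scramble siRNA.

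**Figure D1:**
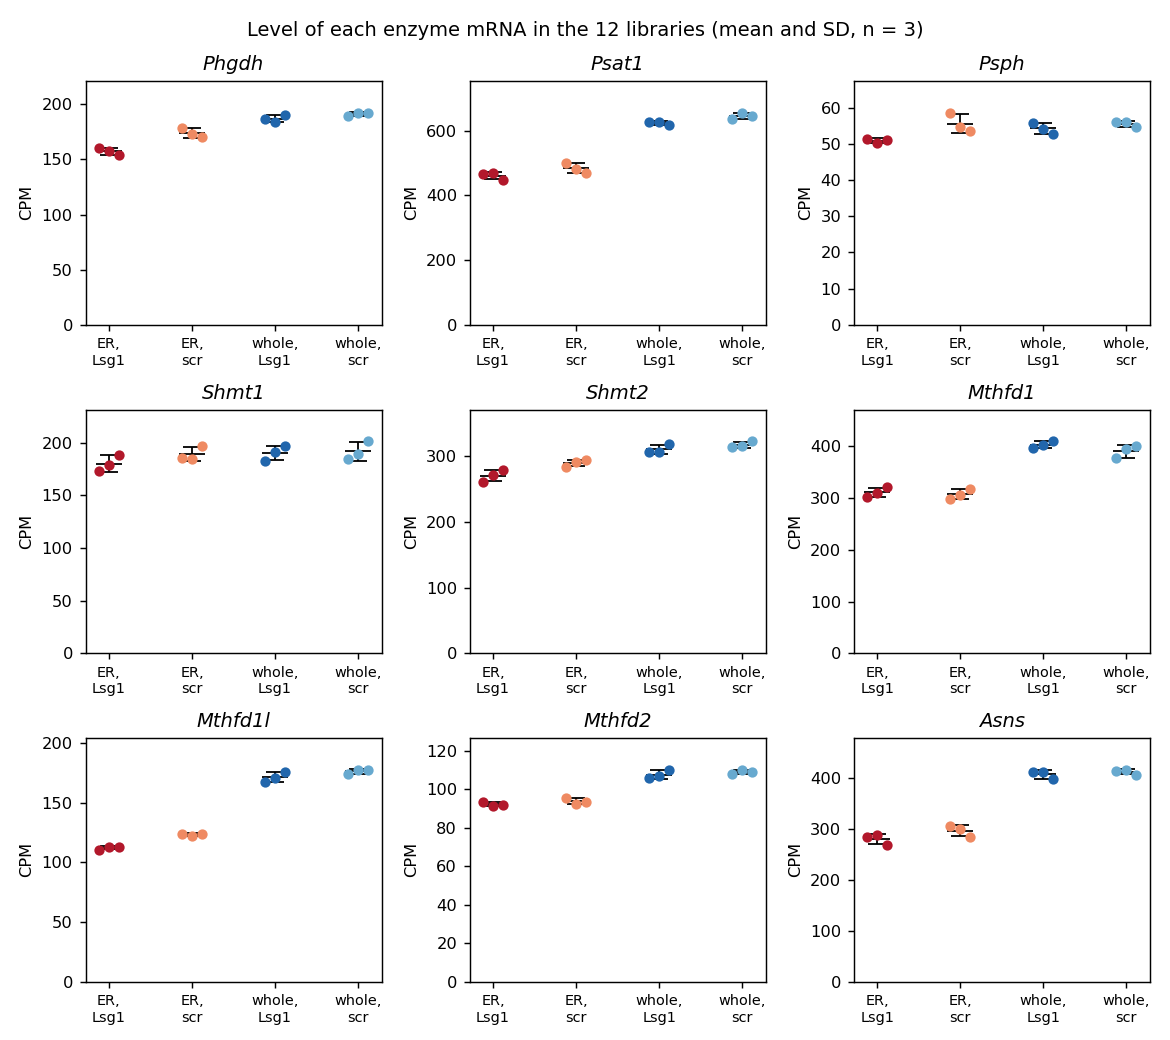
Level of each of the 9 mRNAs in the 12 libraries, in CPM after TMM scaling on an axis from 0. Points are libraries, and bars are the mean and SD of 3 (ER, ER-bound; whole, whole-cell; scr, scramble siRNA); Mthfd1l, Asns, Psat1 and Mthfd1 stand apart most between the fractions.

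In scramble siRNA cells, which show the distribution without the knockdown, 7 of the 9 mRNAs were lower in ER-bound than in whole-cell RNA, 2 did not pass the test, and none was higher. Over all genes tested, 29.1% were lower and 29.8% were higher. The median log2 fold of ER-bound over whole-cell RNA was -0.22 over the 9 mRNAs and 0.03 over all genes. The ER-bound level ran from 69.9% of the whole-cell level for Mthfd1l to 100.2% for Psph. All 3 mRNAs of mitochondrial enzymes passed (69.9% to 91.2% of the whole-cell level), as did 4 of the 6 of cytosolic enzymes (72.0% to 100.2% over the 6).

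Mthfd1l, the mitochondrial formate-releasing enzyme, had 124.0, 121.9 and 123.7 CPM in ER-bound RNA, against 174.0, 177.5 and 177.0 CPM in whole-cell RNA of scramble cells. The lowest whole-cell library lay well above the highest ER-bound one. Its log2 fold was -0.52 (SE 0.029, edgeR adjusted p = 3.8e-11), and 11.7% of the genes tested had a lower fold.

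Asns, which makes asparagine, had 304.5, 298.9 and 284.2 CPM in ER-bound RNA, against 412.0, 415.3 and 405.7 CPM in whole-cell RNA of scramble cells. The groups did not overlap, and the ER-bound level was 72.0% of the whole-cell level (95% interval 68.7% to 75.5%). Its log2 fold of -0.47 (SE 0.032) passed edgeR's test with an adjusted p of 5.2e-10.

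Psat1, the aminotransferase of serine synthesis, had 500.6, 482.6 and 470.0 CPM in ER-bound RNA, against 636.3, 655.2 and 645.8 CPM in whole-cell RNA of scramble cells. It too was lower in every ER-bound library, at 75.0% of the whole-cell level (log2 fold -0.41, SE 0.028, edgeR adjusted p = 4.5e-10). Mthfd1, which takes up formate in the cytosol, averaged 307 ± 9.53 CPM in ER-bound and 391 ± 12.9 CPM in whole-cell RNA (SD, n = 3 each), or 78.6% (log2 fold -0.35, edgeR adjusted p = 3.7e-08).

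The other 5 differed less between the fractions or not past the test. Mthfd2, the mitochondrial dehydrogenase, averaged 93.8 ± 1.59 CPM in ER-bound and 109 ± 0.943 CPM in whole-cell RNA of scramble cells (log2 fold -0.22, edgeR adjusted p = 4.8e-06). Phgdh, the first enzyme of serine synthesis, had 178.9, 173.1 and 170.1 CPM in ER-bound RNA, against 188.9, 191.8 and 192.2 CPM in whole-cell RNA (log2 fold -0.13, edgeR adjusted p = 8.0e-04). Shmt2, the mitochondrial serine hydroxymethyltransferase, averaged 290 ± 5.07 CPM in ER-bound and 318 ± 4.48 CPM in whole-cell RNA (log2 fold -0.13, edgeR adjusted p = 9.7e-04). All 3 were lower in every ER-bound library than in any whole-cell library. Such downward separation held for the 7 mRNAs that passed and for 31.4% of all genes tested.

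Psph and Shmt1 overlapped between the fractions in scramble cells. Psph, the phosphatase that ends serine synthesis, had 58.6, 54.8 and 53.5 CPM in ER-bound RNA, against 56.0, 56.1 and 54.6 CPM in whole-cell RNA (log2 fold 0.00, 95% interval -0.08 to 0.08, edgeR adjusted p = 0.962). Shmt1, the cytosolic serine hydroxymethyltransferase, had 185.7, 184.7 and 197.2 CPM in ER-bound RNA, against 184.2, 189.7 and 201.4 CPM in whole-cell RNA (log2 fold -0.02, 95% interval -0.11 to 0.07, edgeR adjusted p = 0.708). The cytosolic and mitochondrial forms of the same enzyme, Shmt1 and Shmt2, thus stood at 98.6% and 91.2% of their whole-cell levels. Exons of Psph and of the chaperonin gene Cct6a share 452 bases on opposite strands in the GRCm38 annotation, Shmt1 shares 184 with Smcr8, Shmt2 shares 32 with Ndufa4l2 and Mthfd1 shares 37 with Gm47525. The strand setting of the counting is not given in the sources used here. Whether reads in those stretches were counted for 1 of the genes or set aside as ambiguous is therefore not known. Cct6a had up to 66981 reads in a library, and Psph at most 2992. Reads that Phgdh shares with its pseudogene Phgdh-ps1 may have been set aside as multiply aligned.

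**Figure D2:**
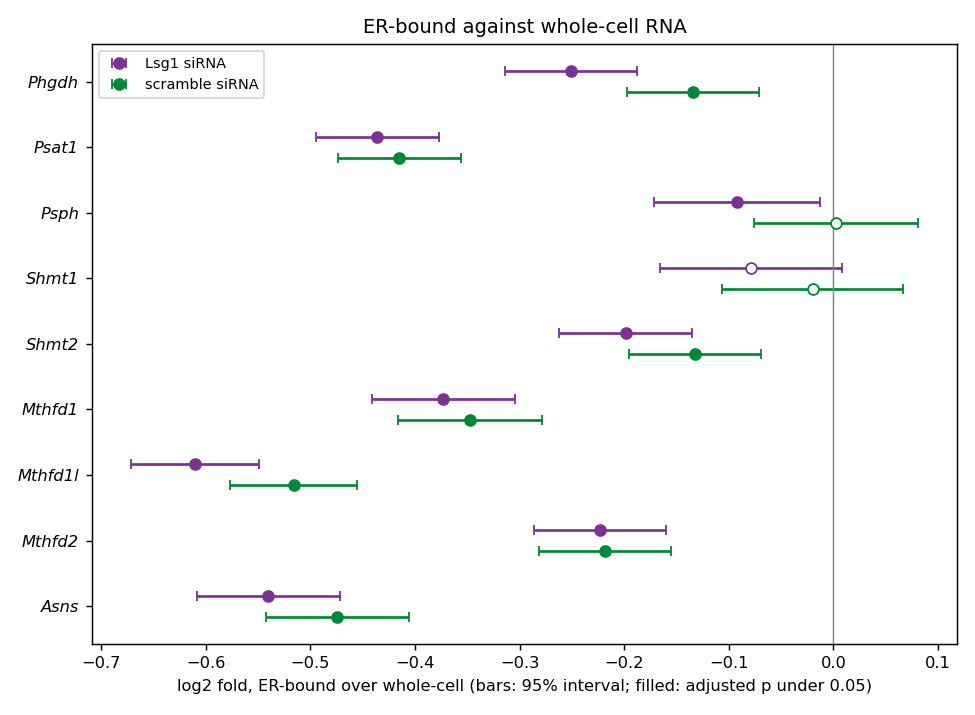
Log2 fold of ER-bound over whole-cell RNA for each mRNA in Lsg1 siRNA cells and in scramble siRNA cells, with 95% intervals of the edgeR fit. Filled points passed at an adjusted p under 0.05; the folds run from -0.61 for Mthfd1l in Lsg1 siRNA cells to 0.00 for Psph in scramble cells.

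Lsg1 siRNA cells are a separate set of libraries for the same comparison, and 8 of the 9 mRNAs were lower in ER-bound than in whole-cell RNA there, against 29.8% of all genes tested. Mthfd1l again stood lowest, with 110.6, 113.2 and 112.7 CPM in ER-bound RNA against 167.2, 170.6 and 175.9 CPM in whole-cell RNA (65.5%, log2 fold -0.61, edgeR adjusted p = 3.9e-12). Asns had 282.9, 286.8 and 268.2 CPM in ER-bound RNA, against 411.1, 410.9 and 396.2 CPM in whole-cell RNA (68.8%, log2 fold -0.54, edgeR adjusted p = 8.1e-11). For both, the ER-bound libraries lay far below the whole-cell ones. The log2 folds of the others that passed edgeR's test were -0.44 for Psat1, -0.37 for Mthfd1, -0.25 for Phgdh, -0.22 for Mthfd2 and -0.20 for Shmt2, each with an adjusted p of 1.5e-05 or lower. All 3 ER-bound libraries lay below all 3 whole-cell libraries for the 8 mRNAs that passed, as for 31.5% of all genes tested.

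Psph passed narrowly in Lsg1 siRNA cells, with 51.5, 50.2 and 51.0 CPM in ER-bound RNA against 55.9, 54.2 and 52.8 CPM in whole-cell RNA (log2 fold -0.09, edgeR adjusted p = 0.0419). It lost the call with library totals alone (log2 fold 0.00, edgeR adjusted p = 0.939), with no low-count filter (edgeR adjusted p = 0.0781), with a stricter one (0.0515), and without ER-bound Lsg1 replicate 2 (0.0926), whole-cell Lsg1 replicate 1 (0.0521) or whole-cell Lsg1 replicate 2 (0.0555). Shmt1 had 173.0, 179.0 and 188.5 CPM in ER-bound RNA, against 182.8, 191.1 and 196.7 CPM in whole-cell RNA, and the groups overlapped (log2 fold -0.08, edgeR adjusted p = 0.111). With each ER-bound library paired to the whole-cell library of its lysate, the fold of Shmt1 was the same and the edgeR adjusted p was 0.0154. Shmt1 also passed with only these groups fitted (edgeR adjusted p = 0.0420), without mitochondrial and ribosomal protein genes (0.0455) and with the GC and length offset described below (4.1e-04). It passed too without ER-bound Lsg1 replicate 3 (edgeR adjusted p = 0.0143), ER-bound scramble replicate 2 (0.0484) or 3 (0.0363), whole-cell Lsg1 replicate 1 (0.0238), or whole-cell scramble replicate 1 (0.0356) or 3 (0.0259).

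**Figure D3:**
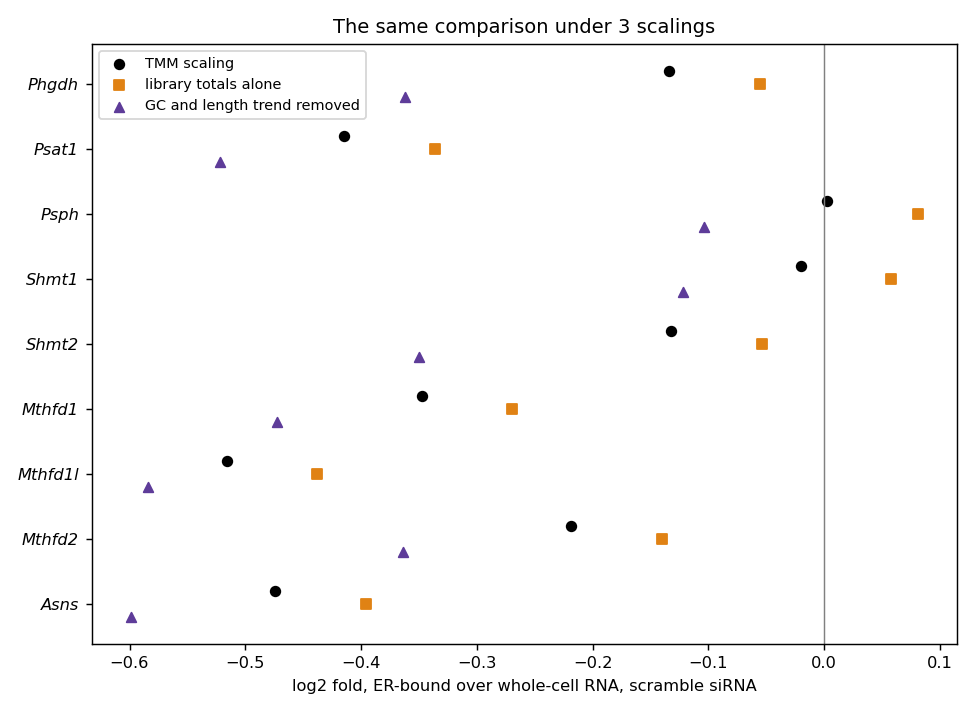
Log2 fold of ER-bound over whole-cell RNA in scramble siRNA cells under 3 scalings: TMM, library totals alone, and an offset that removes trends with GC content and transcript length. Library totals place Psph and Shmt1 above 0 (0.08 and 0.06), and the offset places all 9 below 0, from -0.60 for Asns to -0.10 for Psph.

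The size of the fraction difference depended on the scaling, while the direction for Mthfd1l, Asns, Psat1, Mthfd1, Mthfd2, Phgdh and Shmt2 did not. With library totals alone, 5 of the 9 passed in scramble cells, all lower, while 23.4% of all genes were lower and 36.4% higher. Phgdh (log2 fold -0.06, edgeR adjusted p = 0.139) and Shmt2 (-0.05, edgeR adjusted p = 0.112) lost the call, and the median fold of all genes was 0.11. With the GC and length offset all 9 were lower, against 30.4% of all genes lower and 26.5% higher, with Phgdh at -0.36, Shmt2 at -0.35, Shmt1 at -0.12 and Psph at -0.10. Phgdh and Shmt2 transcripts have a GC content of 57.2% and 57.4%, and those of the other 7 mRNAs lie between 47.7% and 52.6%.

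On ER-labelled ribosomes, 2 of the 9 mRNAs were lower with Lsg1 siRNA than with scramble siRNA and none was higher, while 1.38% of all genes tested were lower and 2.63% were higher. Of the 10 embryonic stem cell markers 3 were lower in the same comparison and 0 higher, with a median log2 fold of -0.07: Nanog (-0.18), Dppa5a (-0.11) and Tfcp2l1 (-0.20). In whole-cell RNA 0 of these 10 markers passed (median -0.02), where 0 of the 17702 genes did. Of 9 early differentiation markers 0 passed in either fraction. The part of these markers in the result was not tested. Phgdh had 160.6, 157.3 and 153.7 CPM in ER-bound RNA with Lsg1 siRNA, against 178.9, 173.1 and 170.1 CPM with scramble siRNA. Every Lsg1 siRNA library lay below every scramble library. Its log2 fold was -0.15 (SE 0.030, edgeR adjusted p = 0.00895), a level of 90.3% of that in scramble cells (95% interval 86.5% to 94.4%). Mthfd1l had 110.6, 113.2 and 112.7 CPM with Lsg1 siRNA, against 124.0, 121.9 and 123.7 CPM with scramble siRNA, again without overlap (log2 fold -0.14, SE 0.029, edgeR adjusted p = 0.0125). Without ER-bound Lsg1 replicate 1 the Mthfd1l fold was -0.13 and the edgeR adjusted p 0.0638. Phgdh passed in every alternative run, with an adjusted p of at most 0.0495 by the test of that run (edgeR, DESeq2 or limma-voom).

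The remaining 7 did not pass on ER-labelled ribosomes in the main fit, while a fit with a replicate block called 5 of the 9. Psph had 51.5, 50.2 and 51.0 CPM with Lsg1 siRNA, against 58.6, 54.8 and 53.5 CPM with scramble siRNA, without overlap (log2 fold -0.13, edgeR adjusted p = 0.0631). Without the pair of libraries that stand apart in ENSMUSG00000119584, Psph stood at -0.17 (edgeR adjusted p = 0.0306). It also passed without ER-bound scramble replicate 3 alone (edgeR adjusted p = 0.0330), without whole-cell Lsg1 replicate 1 (0.0453) and without mitochondrial and ribosomal protein genes (0.0492). Shmt2 had 261.2, 272.0 and 279.0 CPM with Lsg1 siRNA, against 284.4, 291.4 and 294.3 CPM with scramble siRNA (log2 fold -0.10, edgeR adjusted p = 0.0748), and it passed without ER-bound scramble replicate 1 (edgeR adjusted p = 0.0468). Psat1 had 467.3, 467.6 and 447.7 CPM with Lsg1 siRNA, against 500.6, 482.6 and 470.0 CPM with scramble siRNA (log2 fold -0.07, edgeR adjusted p = 0.179). In these 3 mRNAs too, no Lsg1 siRNA library reached a scramble library. Downward separation of this kind held for 5 of the 9 mRNAs and for 8.95% of all genes tested.

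Asns averaged 279 ± 9.81 CPM in ER-bound RNA with Lsg1 siRNA and 296 ± 10.5 CPM with scramble siRNA, with overlapping libraries (log2 fold -0.08, edgeR adjusted p = 0.176). Shmt1 was at -0.07 (edgeR adjusted p = 0.415) and Mthfd2 at -0.02 (edgeR adjusted p = 0.762). Mthfd1 was at 0.02 (95% interval -0.05 to 0.09, edgeR adjusted p = 0.840), and it was the 1 mRNA of the 9 with a fold above 0. Without adjustment, 6 of the 9 had a p under 0.05 and all 6 were lower, against 6.63% of all genes tested that were lower at that level.

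**Figure D4:**
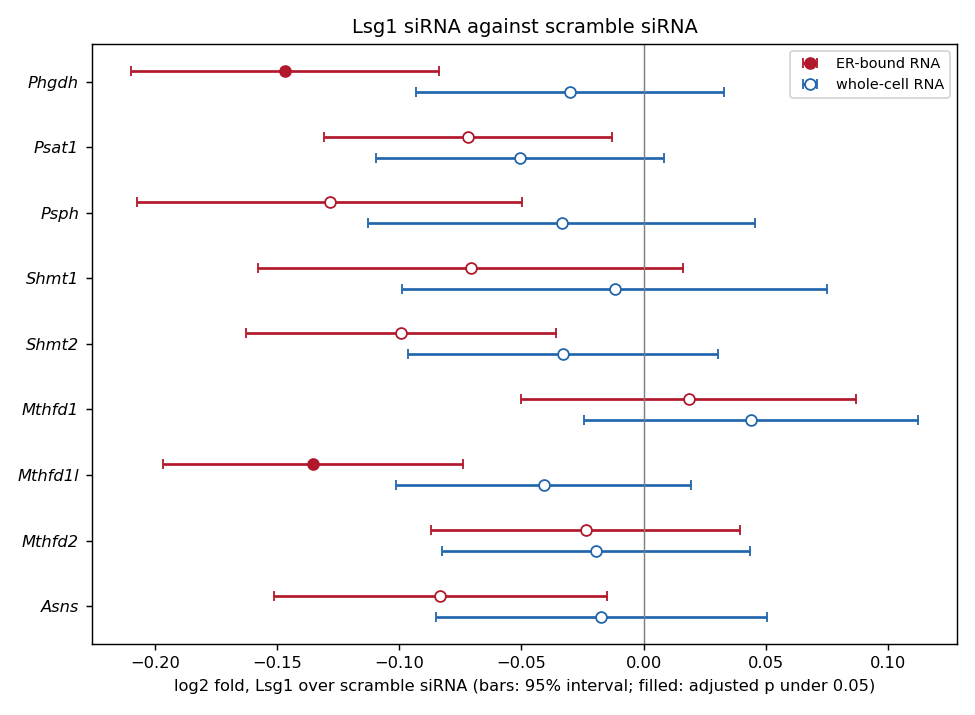
Log2 fold of Lsg1 siRNA over scramble siRNA for each mRNA in ER-bound and in whole-cell RNA, with 95% intervals of the edgeR fit. Filled points, Phgdh and Mthfd1l in ER-bound RNA, passed at an adjusted p under 0.05; no whole-cell point did.

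In whole-cell RNA, none of the 9 mRNAs passed between Lsg1 siRNA and scramble siRNA, where 0% of the genes tested did (0 of 17702 by edgeR, 731 at an unadjusted p under 0.05, 5 by DESeq2 and 0 by limma-voom). Log2 folds ran from -0.05 for Psat1 to 0.04 for Mthfd1. Phgdh had 187.0, 183.6 and 190.6 CPM with Lsg1 siRNA, against 188.9, 191.8 and 192.2 CPM with scramble siRNA. Mthfd1l had 167.2, 170.6 and 175.9 CPM with Lsg1 siRNA, against 174.0, 177.5 and 177.0 CPM with scramble siRNA. The libraries of both mRNAs overlapped between the siRNAs. Psat1 had 625.8, 627.7 and 617.1 CPM with Lsg1 siRNA, against 636.3, 655.2 and 645.8 CPM with scramble siRNA. It was the 1 mRNA of the 9 with every Lsg1 siRNA library below every scramble library, as for 5.18% of all genes tested. Over the 9 mRNAs, the 95% intervals without adjustment reached from 92.5% of the scramble level (lower bound for Psph) to 108% (upper bound for Mthfd1). A change within an mRNA's own interval remains compatible with these libraries.

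Whether the siRNA difference itself differed between the fractions was read from the interaction. None of the 9 passed, where 0.0226% of all genes tested did (4 of 17702 by edgeR, 18 by DESeq2 and 5 by limma-voom). The interaction for Phgdh was -0.12 on the log2 scale (95% interval -0.21 to -0.03, unadjusted p = 0.0133 and edgeR adjusted p = 0.616). For Mthfd1l it was -0.09 (95% interval -0.18 to -0.01, unadjusted p = 0.0336 and edgeR adjusted p = 0.692). The fall of Phgdh and Mthfd1l on ER-labelled ribosomes is therefore not shown to differ from whole-cell RNA. All 9 estimates were below 0, from -0.12 to 0.00, with a median of -0.07 over the 9 and 0.00 over all genes tested. These estimates share their libraries with the fraction and siRNA comparisons above.

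Because ER-bound and whole-cell RNA came from the same lysates, the ratio could be taken within each lysate. For Phgdh the ER-bound level was 85.9%, 85.7% and 80.6% of the whole-cell level in the Lsg1 siRNA lysates, against 94.7%, 90.3% and 88.5% in the scramble lysates. For Mthfd1l it was 66.2%, 66.4% and 64.1% in the Lsg1 siRNA lysates, against 71.3%, 68.7% and 69.9% in the scramble lysates. For Asns it was 68.8%, 69.8% and 67.7% in the Lsg1 siRNA lysates, against 73.9%, 72.0% and 70.0% in the scramble lysates. In these 3, and in Psph, Shmt1 and Shmt2, all 3 Lsg1 siRNA lysates lay below all 3 scramble lysates. The ratios of Psat1, Mthfd1 and Mthfd2 overlapped. That makes 6 of 9 mRNAs, against 6.53% of all genes tested. These ratios restate the interaction above lysate by lysate, from the same libraries for all 9 mRNAs. They are no separate evidence, and the interaction passed for none of the 9.

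Other genes of the same metabolism give the setting for these folds. Over all genes tested, 29.8% were higher and 29.1% lower in ER-bound RNA of scramble cells. In scramble cells, of 33 tested genes that neighbour the 9 in serine, glycine, folate and methionine metabolism, 6 were higher and 13 lower in ER-bound than in whole-cell RNA, with a median log2 fold of -0.03. The glycine cleavage enzyme Gldc was at -0.54, and the folate receptor Folr1 and the folate transporter Slc46a1, both membrane-associated proteins, were at 1.03 and 0.90. Of 12 genes of purine synthesis, a pathway that uses formyl groups made by Mthfd1, 9 were lower and 0 higher (median -0.31). Pfas was at -0.80, Gart at -0.42 and Adss2 at -0.33. Of 18 other amino acid synthesis genes 9 were lower and 3 higher (median -0.08), with Aldh18a1 (proline synthesis) at -0.53, Bcat1 (branched-chain aminotransferase) at -0.42 and Gpt2 (alanine aminotransferase) at -0.58. Of 16 enzymes of glycolysis, the pathway in which 3-phosphoglycerate arises, 11 were lower and 0 higher (median -0.17). The phosphofructokinases Pfkp and Pfkl were at -0.68 and -0.60 and the hexokinase Hk2 at -0.48. Of 17 mitochondrial matrix enzymes (TCA cycle and pyruvate dehydrogenase) 8 were lower and 1 higher (median -0.06), with Ogdh at -0.57 and Dlat at -0.35.

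Transporters of serine, glycine, asparagine and glutamine, which span membranes, ran the other way: 7 of 13 were higher and 1 lower in ER-bound RNA of scramble cells, with a median of 0.25. Slc3a2 (the heavy chain of amino acid exchangers) and Slc38a7 stood at 0.57 and Slc7a5 (its leucine-transporting partner) at 0.43. Among 20 genes of Atf4 and its stress targets, 9 were higher and 4 lower (median 0.13). Gdf15, a secreted stress hormone, was at 0.65, Ppp1r15a at 0.37 and the tRNA exporter Xpot at -0.72. Atf4 itself averaged 366 ± 4.14 CPM in ER-bound and 340 ± 7.03 CPM in whole-cell RNA (SD, n = 3 each), a log2 fold of 0.11 (edgeR adjusted p = 0.00158). Each named gene other than Atf4 passed edgeR's test with an adjusted p of 7.5e-08 or lower.

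**Figure D5:**
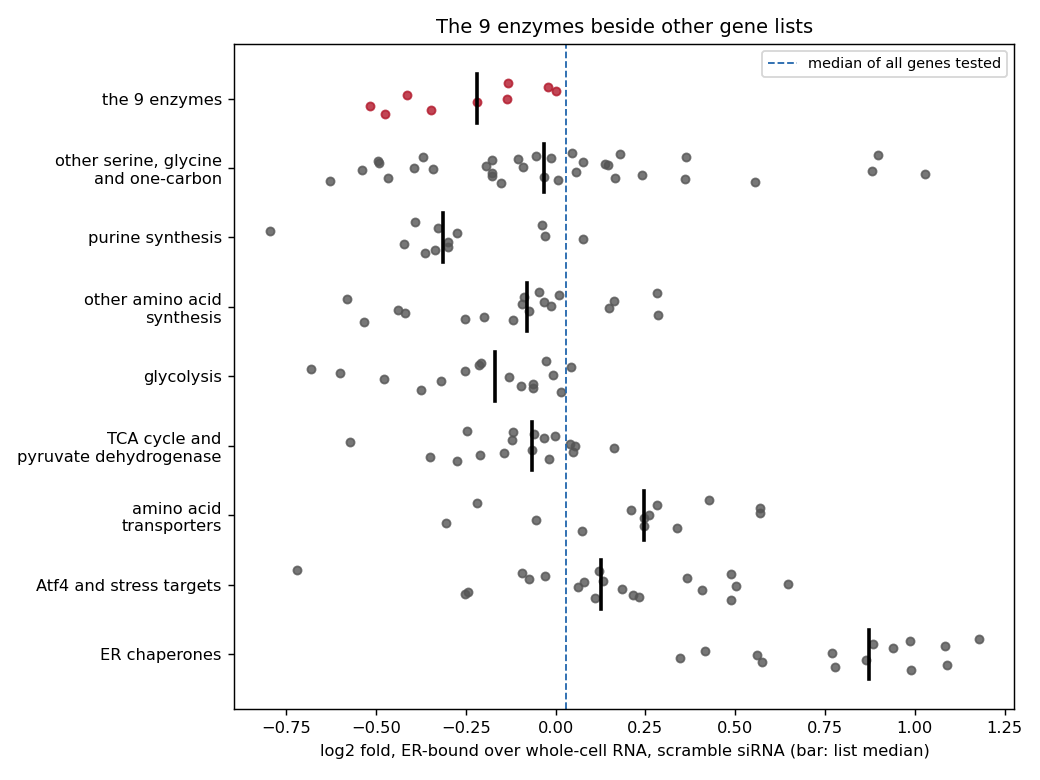
Log2 fold of ER-bound over whole-cell RNA in scramble siRNA cells for the 9 mRNAs and for the genes of 8 other lists. Points are genes, black bars are list medians and the dashed line is the median of all genes tested (0.03); the 9 mRNAs have a median of -0.22 and the ER chaperones one of 0.87.

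In Lsg1 siRNA cells 30.6% of all genes tested were higher and 29.8% lower in ER-bound than in whole-cell RNA. There the lists counted 9 higher and 14 lower of the 33 neighbours, 0 and 10 of the 12 purine genes and 3 and 10 of the 18 amino acid genes. They counted 0 and 14 of the 16 glycolytic enzymes and 1 and 13 of the 17 matrix enzymes. Of the 13 transporters 8 were higher and 0 lower, and of the 20 genes of Atf4 and its targets 8 were higher and 4 lower.

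On ER-labelled ribosomes few of these genes differed between Lsg1 siRNA and scramble siRNA. Over all genes tested, 1.38% were lower and 2.63% higher in this comparison. Mtap, which salvages methionine, was lower at 76.6 ± 1.89 CPM with Lsg1 siRNA and 92.0 ± 1.65 CPM with scramble siRNA (log2 fold -0.26, edgeR adjusted p = 6.6e-04), and it was the 1 of 33 neighbours that passed. Among purine genes Prps2, which makes phosphoribosyl pyrophosphate, was higher (0.22) and none was lower. The cytosolic aspartate aminotransferase Got1 was lower (-0.11), as 1 of 18 amino acid genes. Of the matrix enzymes 3 of 17 were lower: Cs (citrate synthase, -0.17), Idh2 (-0.17) and Sucla2 (-0.12). Of the glycolytic enzymes 3 of 16 were lower: Pfkp (-0.17), Pfkl (-0.11) and Aldoa (-0.10). The amino acid transporters Slc7a5 (0.21) and Slc38a7 (0.18) were higher, 2 of 13 with none lower. Each of these had an edgeR adjusted p of 0.0488 or lower. The counts moved when 1 library was left out. Without ER-bound Lsg1 replicate 2, 0 glycolytic enzymes, 1 matrix enzyme and 0 transporters passed, and without replicate 1 it was 1 glycolytic enzyme and 1 transporter. Without ER-bound Lsg1 replicate 3, 1 matrix enzyme passed. Without ER-bound scramble replicate 3, 1 glycolytic enzyme and 1 transporter passed, and without replicate 2, 1 transporter. Got1 lost the call without any one of 7 libraries (the 3 of ER-bound Lsg1, ER-bound scramble 1 or 2, and replicate 2 of either whole-cell group), and without any one of the other 5 libraries 2 or 3 amino acid genes were lower. Atf4 was at -0.04 (edgeR adjusted p = 0.464), and 0 of the 20 genes of its list passed in either direction. In whole-cell RNA no gene of these lists passed, and Atf4 was at 0.01.

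The mRNAs whose levels ran most like those of the 3 lowest members over the 12 libraries were named by Pearson's r of log2 CPM among 7439 genes with a mean of at least 20 CPM. For Mthfd1l they were Mov10 (r = 0.997), Lmnb2 (0.997) and Cth (0.996), for Asns Pck2 (0.998), Nars (0.996) and Gars (0.995), and for Psat1 Seh1l (0.995), Bcat1 (0.995) and Nars (0.995). The 12 points share the 2 fractions, so r was over 0.95 for 1804 genes beside Mthfd1l, 1665 beside Asns and 1592 beside Psat1.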

How the data were processed

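Poly-A libraries were made from 750 ng of RNA, amplified over 9 PCR cycles and read as 150 bp pairs, per the labels' protocols. The authors deposited raw counts per gene for the 12 libraries. The submitters' processing notes name the GRCm39 build, the aligner STAR 2.7.9a, the counter HTSeq 0.11.2 and DESeq2. Strand setting, annotation release and whether pairs or single reads were counted: not given in the sources used here. The 5 summary lines of each table stayed out of library sizes and tests. Their main shares of all reads were 2.65% to 5.26% without a feature, 6.09% to 8.23% multiply aligned and 0.970% to 1.16% ambiguous.

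Gene names, transcript lengths and GC content came from GENCODE M21 on GRCm38; 52083 IDs (94.0%) matched once versions were dropped, and they held 99.5% of the reads. Counts were scaled by TMM, filtered with filterByExpr and tested with edgeR 4.0.16 (quasi-likelihood, R 4.3.3; coefficient of biological variation 4.42%, 8 residual degrees of freedom). The fit used all 12 libraries with 1 mean per group, and p-values were adjusted by Benjamini-Hochberg over 17702 genes at 0.05. Intervals are 95% intervals of single genes. The 9 mRNAs, the lists, the tests and the alternatives were chosen with earlier results of these data known.

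Named genes were the 9 mRNAs, Lsg1, Atf4, the 3 genes of each list with the smallest p between the fractions in scramble cells, and up to 3 of each list past the threshold in a siRNA comparison or the interaction. One gene that the rule names is not reported here. Pairing of fractions comes from the shared lysates, per the series design text. Deviations of libraries of the same lysate from their group means correlated by 0.093, 0.0098 and 0.14 in scramble and 0.082, 0.0024 and 0.090 in Lsg1 siRNA cells.

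The scaling was changed to DESeq2 size factors or library totals, and the filter to none or to 2 CPM in 3 libraries. DESeq2 1.42.0 and limma-voom (limma 3.58.1) replaced the test. Further alternatives were fits without the groups not compared, a block by replicate number, a block by lysate, removal of 109 genes (mitochondrially encoded or for ribosomal proteins), an offset for length and GC trends (5 spline degrees of freedom), each library left out, and 2 libraries left out together. Figures used matplotlib 3.10.9 in Python 3.11.15.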

Additional observations from a re-analysis of the deposited data

Results flagged for a closer look

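Lsg1, the target of the siRNA, fell by more in ER-bound RNA than in whole-cell RNA. The difference between the fractions, tested as an interaction, was -1.22 on the log2 scale (SE 0.15, edgeR adjusted p = 0.00135). All 3 Lsg1 siRNA libraries lay below all 3 scramble libraries in each fraction.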

How the results depend on the processing

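Between the fractions, over 24 alternatives, Mthfd1l, Asns, Psat1, Mthfd1 and Mthfd2 stayed lower and past the threshold for both siRNAs. In scramble cells the fold of Psph (0.00) lay below 0 with DESeq2 (-0.0129), DESeq2 size factors (-0.0130), only the groups compared (-0.0120), no mitochondrial or ribosomal protein genes (-0.0128) and the GC and length offset (-0.10, where Lsg1 was at -0.0346). Library totals put Shmt1 at 0.0102 in Lsg1 siRNA and 0.0579 in scramble cells, and the interaction of Mthfd2 at 0.0060.

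For Lsg1 against scramble siRNA in ER-bound RNA, 710 genes and 2 of the 9 mRNAs were called. Genes called were 375 with only the groups compared and 1178 with a replicate block. The block called 5 of the 9 mRNAs, adding Psph, Shmt2 and Asns (edgeR adjusted p = 0.0228, 0.0157 and 0.0406), and the GC offset and the stricter filter called 4 each, adding Psph and Shmt2. The call of Psph or Shmt2 also changed without single libraries. Same-numbered deviations of the ER-bound libraries correlated by 0.17, 0.0073 and 0.14, and of the whole-cell libraries by 0.037, 0.039 and 0.097. Not every library correlated best with its own number. That also held for libraries of the same lysate, which are paired, so these correlations cannot decide whether the numbers pair the siRNAs. The main fit did not take the numbers as a pairing between siRNAs. On the second principal component, however, replicates 1, 2 and 3 rose in that order in each of the 4 groups. With scramble siRNA they ran from -13.0 to 15.5 in ER-bound and from -14.3 to 7.40 in whole-cell libraries. With Lsg1 siRNA they ran from -7.01 to 11.3 and from -7.89 to 18.2. The fit without a block leaves a replicate difference shared by the siRNAs in its spread. Mthfd1 was at -0.00036 without a filter. Over all alternatives, lower glycolytic enzymes numbered 0 to 6, matrix enzymes 1 to 5 and amino acid genes 0 to 4, and higher transporters 0 to 2.

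In whole-cell RNA, 0 genes were called, against 5 with DESeq2, 1 with the GC offset, 26 with no filter, 2 with only the groups compared, 5 with the replicate block and 4 without the 2 libraries. The interaction called 4 genes, against 18 with DESeq2, 59 with no filter, 13 with the replicate block and 10 with the block by lysate. None of these settings called any of the 9 mRNAs in either comparison. Apart from Shmt1 in Lsg1 siRNA cells, the block by lysate changed no call of the 9.

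With each library left out, genes called ranged from 290 to 854 in the ER-bound siRNA comparison (367, 290 and 432 without ER-bound Lsg1 replicates 1, 2 and 3, and 312 without ER-bound scramble replicate 2), with 1 to 3 of the 9 mRNAs. They ranged from 0 to 3 in whole-cell RNA and 3 to 8 in the interaction, with the highest without ER-bound scramble replicate 1 in both. In scramble cells the fraction fold of Psph ranged from -0.0420 to 0.0150, of Shmt1 from -0.0704 to 0.0069 and of Lsg1 from -0.0122 to 0.0632. Mthfd1 ranged from -0.0195 to 0.0299 between siRNAs in ER-bound RNA, Shmt1 from -0.0468 to 0.0300 in whole-cell RNA, and Mthfd2 from -0.0274 to 0.0097 in the interaction. The cause of these changes was not tested.

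Each of the 9 mRNAs had at least 2091 reads in every library, and each group had 3 libraries. What limits the calls was not tested. Relative counts cannot show a change of all mRNAs together, and poly-A selection leaves other RNAs out.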

Other observations

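The interaction of fraction and siRNA was below 0 for each tested gene of 2 other lists, although no gene of either passed edgeR's test. For the 17 mitochondrial matrix enzymes it ran from -0.15 to -0.02 with a median of -0.07, and for the 16 glycolytic enzymes from -0.16 to 0.00 with a median of -0.06. For the 13 transporters it ran from -0.07 to 0.20 with a median of 0.10, and for the 14 ER chaperones from 0.00 to 0.18 with a median of 0.04. The median over all genes tested was 0.00.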
